A study of Homo sapiens with 21 samples.

Results

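Reads on 10 marker genes of fibroblasts, vessels and leukocytes were examined in xenografts in which these cell types come from the mouse host, while only reads placed on human genes were counted. The genes were the collagen chains COL1A1, COL1A2 and COL3A1, the matrix proteins LUM, DCN and SPARC, the smooth muscle actin ACTA2, the endothelial genes PECAM1 and VWF, and the leukocyte gene PTPRC. They were looked up by symbol among the 60651 genes of the raw count table, and were chosen because of their counts over all 21 tumors, so their levels are given as a description without a test.

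The tumors were grown from A549-Luc2 cells, a luciferase-tagged derivative of the human lung adenocarcinoma line A549, injected with Matrigel under the skin of the hind flank of female athymic nu/nu mice aged 6 to 8 weeks. These mice lack a thymus and mature T cells but keep their own fibroblasts, vessels and other blood cells. The control group received the oral formulation without a compound, and the other groups received Oxy186 or Oxy210 in that formulation by daily gavage at 50 mg/kg. RNA-seq was available for 7 tumors per group, all from 1 cell line. Between 13787493 and 17865119 reads per tumor were counted on human genes, and the depths of the 3 groups overlapped. The libraries differed more in how counts followed the GC content of exons, from a slope of -0.51 to 0.49 on the log2 scale per 10 points of GC, and was negative in all 4 of the Oxy186-treated samples r1-r4 (-0.51 to -0.18) and positive in r5-r7 (0.079 to 0.49).

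Fibroblasts build the matrix of a tumor. They secrete fibrillar collagens, whose fibrils are coated by small leucine-rich proteoglycans such as lumican (LUM) and decorin (DCN), and they secrete SPARC, a collagen-binding glycoprotein. Type I collagen of normal tissue is a trimer that joins the chains of COL1A1 and COL1A2, and in connective tissue it is laid down with type III collagen, the product of COL3A1. Vessels are lined by endothelium, which carries PECAM1 and stores von Willebrand factor (VWF), and are wrapped by mural cells that contain ACTA2. PTPRC encodes CD45, a surface phosphatase of leukocytes. Carcinoma cells can also transcribe some of these matrix genes.

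The 10 markers split widely in level. Read counts were scaled to library size with TMM factors (CPM), and genes were compared with each other only after division by exon length, as CPM per kb. LUM had the highest median over the 21 tumors at 35.0 CPM per kb, above 98.4% of the 60437 genes with a length. SPARC followed at 8.23 CPM per kb (above 92.3% of genes) and COL1A1 at 4.33 CPM per kb (above 87.5%). Only 24612 of these genes had a median above 0. Of them, 939 were above LUM, 4683 above SPARC and 7551 above COL1A1. ACTA2 (0.286 CPM per kb), PECAM1 (0.273) and DCN (0.126) lay more than 10-fold below COL1A1. COL3A1 (0.0268) and PTPRC (0.0131) were lower again, and the medians of COL1A2 and VWF were 0.

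Some neighbors in this order were not separated. LUM was above SPARC in 21 of 21 tumors, and the range of COL1A1 (2.01 to 7.67 CPM per kb) did not overlap that of ACTA2 (0.169 to 0.602). SPARC was above COL1A1 in only 15 of 21 tumors and ACTA2 above PECAM1 in 12 of 21. By exon length, these neighbors thus did not differ beyond the spread between tumors. With the longest transcript in place of all exons as the length, the medians were 6.60 CPM per kb for COL1A1 and 11.1 for SPARC. They were 0.570 for ACTA2, 0.310 for PECAM1, 0.237 for DCN and 0.0280 for PTPRC. How far ACTA2 stood from PECAM1 therefore depended on the length used. The genome sequences behind the reads were not analysed here, and whether a read came from a human tumor cell or from a mouse cell whose read was placed on a human gene was not tested.

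**Figure D1:**
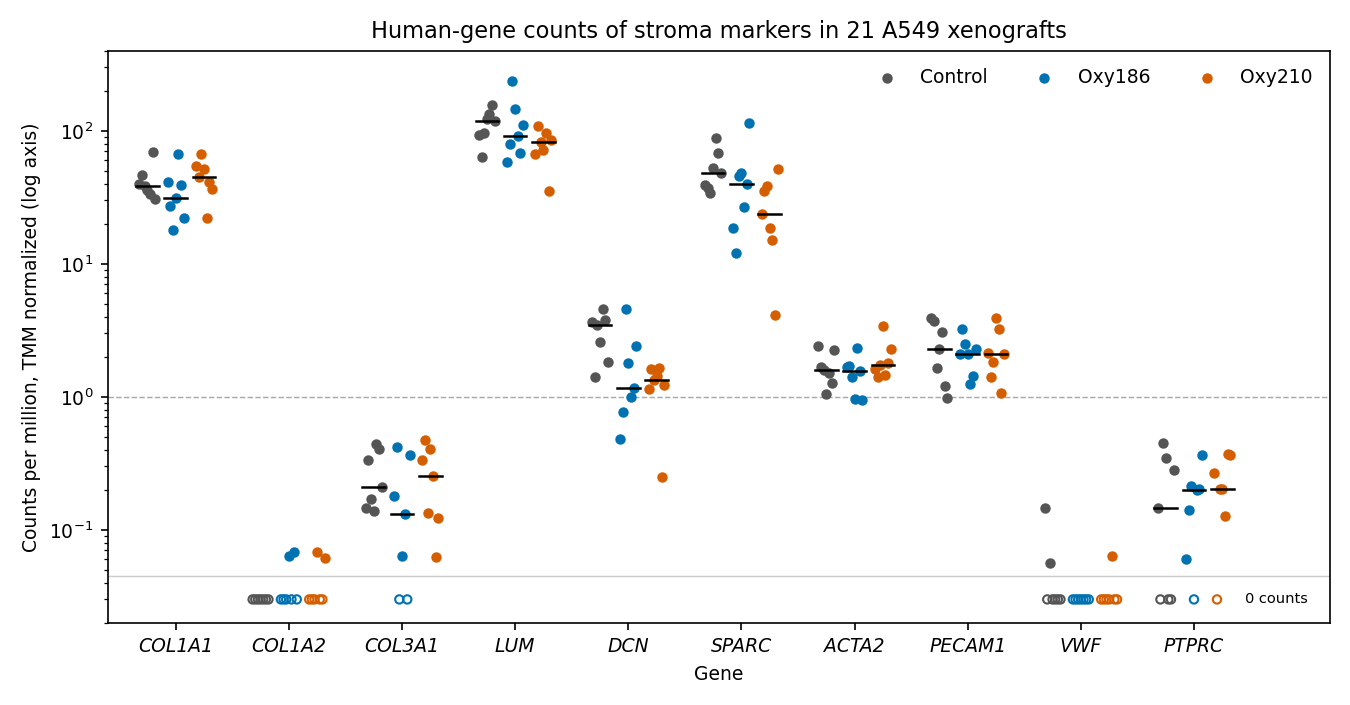
CPM (TMM normalized, log axis) of the 10 stroma markers in each tumor, with 7 points per group, black bars at group medians above 0, a dashed line at 1 CPM and open circles for tumors with 0 counts. LUM, SPARC and COL1A1 stand between 4.12 and 237 CPM, while COL1A2 and VWF have 0 counts in 17 and 18 of the 21 tumors.

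The 3 collagen chains were far apart. COL1A1 (ENSG00000108821.14, chromosome 17, 50184101 to 50201632 on GRCh38) had 256 to 1031 counts per tumor, with a median of 595 and a sum of 12958. COL1A2 (ENSG00000164692.18, chromosome 7, 94394895 to 94431227) had 0 counts in 17 of 21 tumors and 1 count in each of the others, 4 counts in all (exact Poisson 95% interval 1.09 to 10.2, covering counting error only). The partner chain of type I collagen was thus at the limit of detection in tumors with at least 256 COL1A1 reads, although its exons are the longer ones, 10812 bp against 9007 bp. COL3A1 (ENSG00000168542.16, chromosome 2, 188974373 to 189012746) had 0 to 7 counts with a median of 3 and a sum of 72 (56.3 to 90.7). No 50-base window of the canonical transcript of these 3 genes, which for COL1A2 is shorter than its longest transcript, was shared with another human transcript in GENCODE.

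LUM and DCN are neighbors on chromosome 12. LUM (ENSG00000139329.5, 91102629 to 91111494) and DCN (ENSG00000011465.18, 91140484 to 91183217) lie on the same strand, 28989 bp apart. LUM had 566 to 3348 counts per tumor (median 1396) and DCN 4 to 73 (median 24). EPYC and KERA, the other small proteoglycan genes of this cluster, which were looked at only after the values of LUM and DCN were seen, summed to 2 counts and 1 count over all tumors. Counts at this locus were therefore concentrated on LUM and, at a lower level, DCN. SPARC (ENSG00000113140.11, chromosome 5, 151661096 to 151686975) had 66 to 1565 counts (median 568), and 4.12% of its exon bases overlap the antisense gene CLMAT3.

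The vessel and mural genes had few reads. PECAM1 (ENSG00000261371.6, chromosome 17, 64319415 to 64413776) had 14 to 58 counts per tumor with a median of 33. VWF (ENSG00000110799.14, chromosome 12, 5948877 to 6124770) had 4 counts in all, 3 of them in the control group, and 0 counts in 18 tumors. Of the 50-base windows of its canonical transcript, 8.68% are shared with another human gene, mainly the pseudogene VWFP1, which unique counting leaves out. ACTA2 (ENSG00000107796.13, chromosome 10, 88935074 to 88991339) had 13 to 50 counts with a median of 24. Its counts are uncertain, because 36.0% of its exon bases lie opposite exons of ACTA2-AS1 or FAS. Whether reads were counted by strand is not given in the sources used here. In addition, 7.13% of its exon bases overlap the long noncoding gene ENSG00000286116 on the same strand.

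The leukocyte gene PTPRC (ENSG00000081237.20, chromosome 1, 198638457 to 198757476) had 0 to 8 counts per tumor, 60 in all (45.8 to 77.2). These were spread as 19 counts in the control group, 17 in the Oxy186 group and 24 in the Oxy210 group, and 5 tumors had 0. COL3A1 was spread alike, with 28, 17 and 27 counts. No fold change is given for COL1A2, COL3A1, VWF and PTPRC, which did not pass the filter on low counts in any comparison.

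Wider marker lists of the same cell types showed how these levels sit among related genes, counting a gene as present where its median over the 21 tumors was at least 1 CPM. The lists were chosen with earlier results of these data known. Of 26 other fibroblast and matrix genes, 11 were present, led by FN1 (fibronectin, 1011 CPM) and the type V collagen chains COL5A2 (198 CPM) and COL5A1 (81.9 CPM), while 6 had a median of 0 counts, among them POSTN, BGN and DPT. Genes that modify and fold collagen were present almost throughout, 14 of 15, led by CRTAP (330 CPM), a subunit of the prolyl 3-hydroxylation complex, PLOD2 (232 CPM), a lysyl hydroxylase, and BMP1 (121 CPM), a procollagen proteinase. Of 12 mural genes 7 were present, led by the tropomyosin TPM2 (129 CPM), the receptor NOTCH3 (21.7 CPM) and TAGLN (15.0 CPM).

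Most genes of the vessel and blood cell lists were below 1 CPM in the human counts. Of 19 endothelial genes 4 were present, led by EGFL7 (21.3 CPM), SOX17 (12.3 CPM) and ENG (2.75 CPM). Another 7 had a median of 0 counts, among them the receptors KDR and FLT1, while CDH5 had 2 to 43 counts per tumor. Of 24 leukocyte genes 5 were present, led by lysozyme (LYZ, 9.83 CPM) and the integrins ITGAM (6.36 CPM) and ITGAX (3.29 CPM). Another 9 had a median of 0 counts, among them CD3D, CD3E and TYROBP, while CD4 had 1 to 13 counts per tumor and CD8A 1 to 15. None of 3 globin genes was present, and HBB had 0 to 9 counts per tumor, HBA1 0 to 4 and HBA2 0 to 2. Of 6 adipocyte genes, CIDEC (9.44 CPM) was present, PLIN1 was at 0.766 CPM and ADIPOQ had 0 counts in every tumor. Of 9 skeletal muscle genes, TTN (11.6 CPM) was present and MB was at 0.873 CPM.

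Genes of the tumor epithelium were at another scale. Of 10 such genes 9 were present, led by the aldehyde dehydrogenase ALDH1A1 (6431 CPM) and the keratins KRT8 (5105 CPM) and KRT18 (3363 CPM). Among 5 actin genes, the cytoplasmic ACTG1 (5584 CPM) and ACTB (3252 CPM) were present, and ACTA1, the skeletal muscle actin, had a median of 0.227 CPM. The summed level of the 10 stroma markers was 154 to 301 CPM in control tumors, 122 to 309 CPM in the Oxy186 group and 83.9 to 194 CPM in the Oxy210 group, against 16523 to 30594 CPM for the epithelial list over all tumors.

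**Figure D2:**
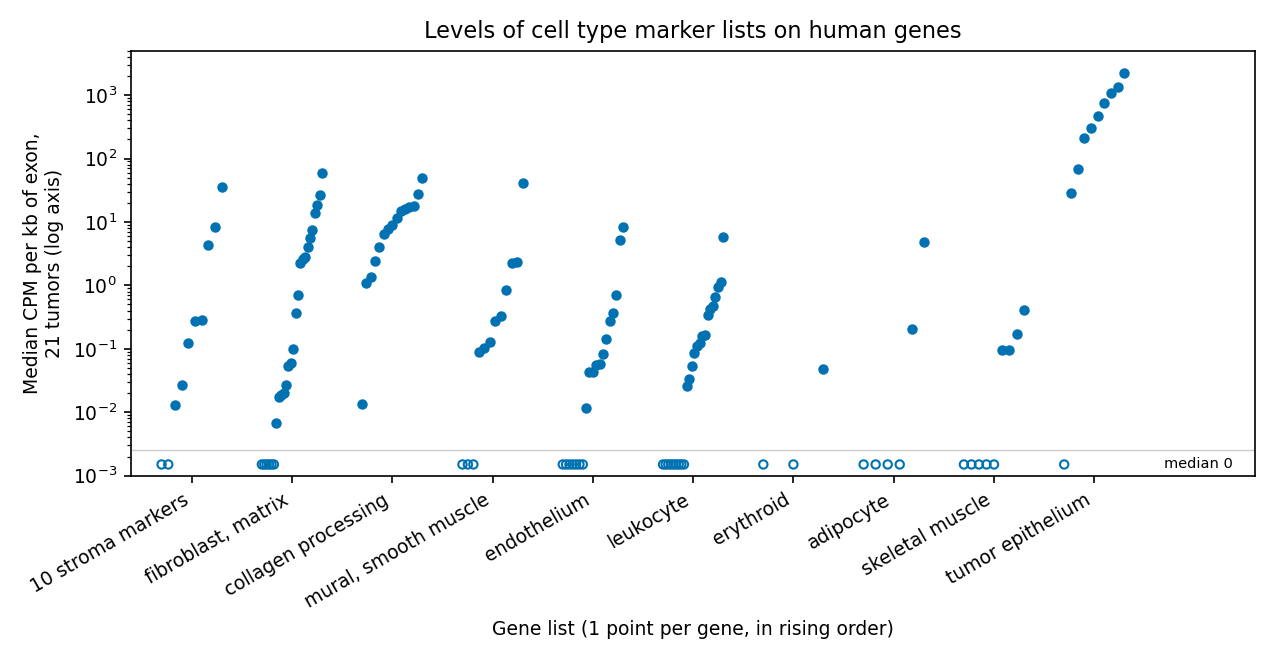
Median CPM per kb of exon over 21 tumors (log axis) for each gene of the 10 stroma markers and of 9 lists of cell type or function genes, 1 point per gene in rising order, with open circles for medians of 0. Most epithelial genes lie above every stroma marker, and collagen processing is the stromal list in which nearly all genes (14 of 15) reach a median of 1 CPM.

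Oxy210-treated and control tumors were compared to ask whether these genes differed with the compound. A gene was called where its fold change was over 2 and its p from edgeR's quasi-likelihood test, adjusted by Benjamini and Hochberg's method over all genes, was 0.05 or less. Of the 10 markers, 6 passed the low-count filter and 0 were called, against a background of 0% of 16396 genes. At an unadjusted p under 0.05, edgeR listed 2270 genes, 13.8% of those tested, and 3 of the 6 markers were among them, DCN, SPARC and LUM, each with a fold change below 1. DESeq2 called 22 genes, DCN among them, and limma voom called 0. In bulk tumors, fewer cells of a type and less RNA per cell cannot be told apart.

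DCN differed most. It ranged from 1.42 to 4.58 CPM in control tumors (median 3.46) and from 0.249 to 1.64 CPM in Oxy210-treated tumors (median 1.34). All 7 Oxy210-treated tumors were below the control median and 4 were below the lowest control tumor, but the ranges overlapped. The log2 fold change was -1.27 ± 0.32 (SE; 95% interval -1.94 to -0.60) with an adjusted p of 0.212 in edgeR's quasi-likelihood test, which was not a call. DESeq2 gave -1.29 with an adjusted p of 0.0187, and the adjusted p of DCN lay between 0.0187 and 0.578 over 9 alternative settings. Oxy210 replicate 6 stood apart with 4 counts, and without it the edgeR log2 fold change was -1.10 (adjusted p = 0.413).

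SPARC and LUM had smaller differences, and their ranges also overlapped those of the control tumors. SPARC ranged from 34.3 to 88.9 CPM in control tumors (median 47.9) and from 4.12 to 51.6 CPM in Oxy210-treated tumors (median 23.7). Of the 7 Oxy210-treated tumors, 6 lay below the control median and 4 below the lowest control tumor. Its log2 fold change was -0.97 ± 0.36 (SE; 95% interval -1.72 to -0.22), with an edgeR adjusted p of 0.295. The lowest tumor was again Oxy210 replicate 6, and without it the value was -0.78 (adjusted p = 0.432).

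LUM ranged from 63.2 to 157 CPM in control tumors (median 118) and from 35.3 to 109 CPM in Oxy210-treated tumors (median 82.6). All 7 Oxy210-treated tumors were below the control median, and 1, replicate 6, was below the lowest control tumor. The log2 fold change was -0.50 ± 0.21 (SE; 95% interval -0.94 to -0.053), with an edgeR adjusted p of 0.324. Without replicate 6 it was -0.38 (edgeR adjusted p = 0.482).

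For the other 3 tested markers, neither a difference from control nor likeness to it was shown. COL1A1 ranged from 30.7 to 69.1 CPM in control tumors (median 38.2) and from 22.3 to 66.9 CPM with Oxy210 (median 45.0), a log2 fold change of 0.13 (95% interval -0.30 to 0.55). ACTA2 ranged from 1.05 to 2.40 CPM in control tumors and from 1.42 to 3.39 CPM with Oxy210, a log2 fold change of 0.24 (-0.28 to 0.77). PECAM1 ranged from 0.986 to 3.94 CPM and from 1.06 to 3.93 CPM, a log2 fold change of -0.074 (-0.78 to 0.63). The estimate of COL1A1 was thus above 0 and those of DCN, SPARC and LUM below 0, but the interval of COL1A1 included values on both sides. The intervals of ACTA2 and PECAM1 also included 0.

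No gene of the wider lists was called in any comparison. In Oxy210 against control, 13.8% of all genes had an unadjusted p under 0.05 and the median log2 fold change of all 16396 genes was 0.0086. Of 7 endothelial genes tested 2 were under that p, EGFL7 at -0.68 ± 0.20 (SE, edgeR adjusted p = 0.247) and SOX18 at -0.79. All 7 were below 0 (median -0.68), but CDH5, with 2 to 43 counts per tumor, passed the low-count filter in this comparison only. SOX18, with 1 to 30 counts per tumor, passed it only in the comparisons with control. A low-count gene can pass that filter through the control tumors alone, and its value is then likely to be below 0. The count of 7 below 0 and the count of 2 under that p are therefore a description. Of 6 leukocyte genes 2 had an unadjusted p under 0.05, LYZ at -0.90 ± 0.29 (SE, edgeR adjusted p = 0.271) and CD14 at -0.80, and 5 were below 0 (median -0.45). Of 12 fibroblast and matrix genes 1 was under it, with a value above 0, the collagen gene COL12A1 at 0.45, and 8 were below 0 (median -0.055). The collagen processing list had 1 of 14, P3H1 at -0.37, with 13 below 0 (median -0.17), the epithelial list 1 of 9, KRT19 at -0.78, with 6 below 0 (median -0.14), and the mural list 0 of 7 (median -0.029). Of the 2 adipocyte genes tested it was CIDEC at -0.57, and of the 2 actins ACTG1 at -0.48. CDH5, SOX18, CD14, COL12A1, P3H1 and KRT19 were named after their values were seen.

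In Oxy186 against control, which shares the control tumors, all 6 endothelial genes tested were below 0 (median -0.50). They include SOX18, so the limit of the low-count filter applies to this count as well, and it is a description. Below 0 were also 13 of 14 collagen processing genes (median -0.21) and 3 of 6 leukocyte genes (median -0.24). The median over all 16291 genes was -0.0067. Between Oxy186 and Oxy210 the endothelial median was 0.011 over 5 genes, and that of the leukocyte list 0.34 over 6. CDH5 and SOX18 did not pass the low-count filter between the 2 compounds, so the endothelial medians of the 3 comparisons cover different genes. The levels below control in endothelial genes were thus not shown to be particular to 1 compound. All values of the lists come from fits without GC offsets. Whether their medians follow the GC trends of the libraries was not tested.

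In Oxy186-treated tumors no marker was separated from control. In this comparison, 0 of 6 tested markers were called by edgeR, against a background of 0% of 16291 genes, and 0 had an unadjusted p under 0.05, against 618 genes (3.79%). DESeq2 and limma voom also called 0 genes. DCN ranged from 0.483 to 4.60 CPM (median 1.16), with 6 of 7 tumors below the control median and replicate 3 above every control tumor. Its log2 fold change was -0.84 ± 0.41 (SE; 95% interval -1.70 to 0.029), with an edgeR adjusted p of 0.862.

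The other markers had intervals that included 0. LUM ranged from 58.0 to 237 CPM with Oxy186 (median 91.4), highest in replicate 3, and its log2 fold change was -0.014 (95% interval -0.58 to 0.56), a value whose sign turned under 5 alternative settings. SPARC ranged from 12.1 to 115 CPM (median 39.8), highest in replicate 7, with a log2 fold change of -0.29 (-1.09 to 0.51). That value was -0.76 without Oxy186 replicate 7 and -0.092 without control replicate 5, and -0.54 with limma voom. COL1A1 ranged from 18.1 to 66.7 CPM (median 31.1), with a log2 fold change of -0.28 (-0.82 to 0.26) that became 0.037 with GC offsets. ACTA2 was at -0.16 (-0.71 to 0.38) and PECAM1 at -0.19 (-0.87 to 0.48).

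The study based its own comparison on the Oxy186-treated samples r1-r4, which it picked by principal component analysis of these libraries, so the values of that subset are a description. On the log2 scale, r1-r4 relative to control stood at -0.76 in SPARC, -0.68 in DCN, -0.52 in COL1A1, -0.22 in ACTA2, 0.22 in LUM and 0.040 in PECAM1, where the median of all 16852 genes was 0.0060. With GC offsets the value of COL1A1 was 0.14, that of DCN -1.02 and that of LUM -0.088. SPARC had a median of 32.1 CPM in r1-r4 and 39.8 CPM in r5-r7, and the ranges of these subsets overlapped.

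Oxy186 and Oxy210 were also compared directly, as 1 pair at the same dose. Of the 6 tested markers 0 were called by edgeR, against a background of 0% of 16361 genes, and 0 had an unadjusted p under 0.05, against 664 genes (4.06%). DESeq2 and limma voom called 0 genes, but DESeq2 gave no adjusted p for any of the 6 markers and so could not call them. The log2 difference, Oxy186 relative to Oxy210, was 0.70 for SPARC (95% interval -0.30 to 1.70), 0.51 for LUM (-0.093 to 1.12) and 0.47 for DCN (-0.48 to 1.42). Without Oxy186 replicate 3 the difference was 0.033 for DCN and 0.25 for LUM, and without Oxy186 replicate 7 it was 0.26 for SPARC. With all tumors it was -0.38 for COL1A1 (-0.93 to 0.17), -0.38 for ACTA2 (-0.93 to 0.18) and -0.090 for PECAM1 (-0.72 to 0.54). All 6 intervals include 0 and reach past a difference of 0.5 on the log2 scale in at least 1 direction, so the compounds were not shown to act alike or differently on these genes. The comparisons with control share the same 7 control tumors.

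**Figure D3:**
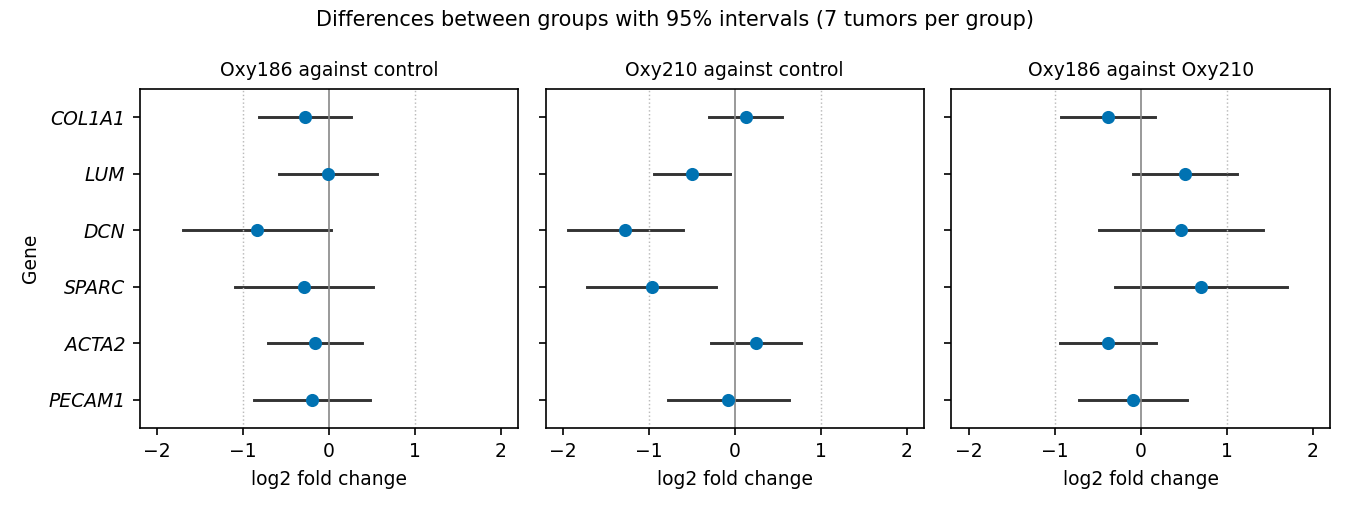
Log2 fold changes of the 6 markers that passed the low-count filter, with 95% intervals from edgeR's quasi-likelihood fit (lines), in the 3 comparisons of 7 against 7 tumors; dotted lines mark a fold change of 2. Only DCN, SPARC and LUM in Oxy210 against control have intervals that leave out 0, and their adjusted p values are 0.212, 0.295 and 0.324.

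LUM, DCN and SPARC varied together from tumor to tumor, and COL1A1 did not follow them. Over the 21 tumors, Pearson's r of log2 CPM was 0.83 between LUM and DCN (Spearman's rho 0.84), 0.76 between DCN and SPARC (rho 0.68) and 0.70 between LUM and SPARC (rho 0.69). Without the 2 tumors farthest from the median the values were 0.72, 0.60 and 0.61, and after centering on group means they were 0.87, 0.71 and 0.64. Between COL1A1 and these genes r was -0.37 for LUM, -0.24 for DCN and -0.10 for SPARC. These values describe tumors that share the depth and GC trends of their libraries, and removing the GC trend gave 0.88 for LUM with DCN, 0.78 for DCN with SPARC and 0.80 for LUM with SPARC. For COL1A1 it gave -0.33 with LUM, -0.42 with DCN and -0.31 with SPARC.

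The amount of LUM relative to DCN was not constant. From summed counts, not scaled to length, there were 36.5 LUM reads per DCN read in control tumors, 65.8 in Oxy186-treated and 63.6 in Oxy210-treated tumors. In single tumors the ratio ran from 25.7 to 64.3, from 46.0 to 120 and from 50.4 to 142 in these groups, so the ranges overlapped. The value of 142 is Oxy210 replicate 6 with its 4 DCN counts, and the highest ratio among the other Oxy210-treated tumors was 69.8. The value of 120 is Oxy186 replicate 1 with 8 DCN counts, and Oxy186 replicate 2, with 11, had a ratio of 103.

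**Figure D4:**
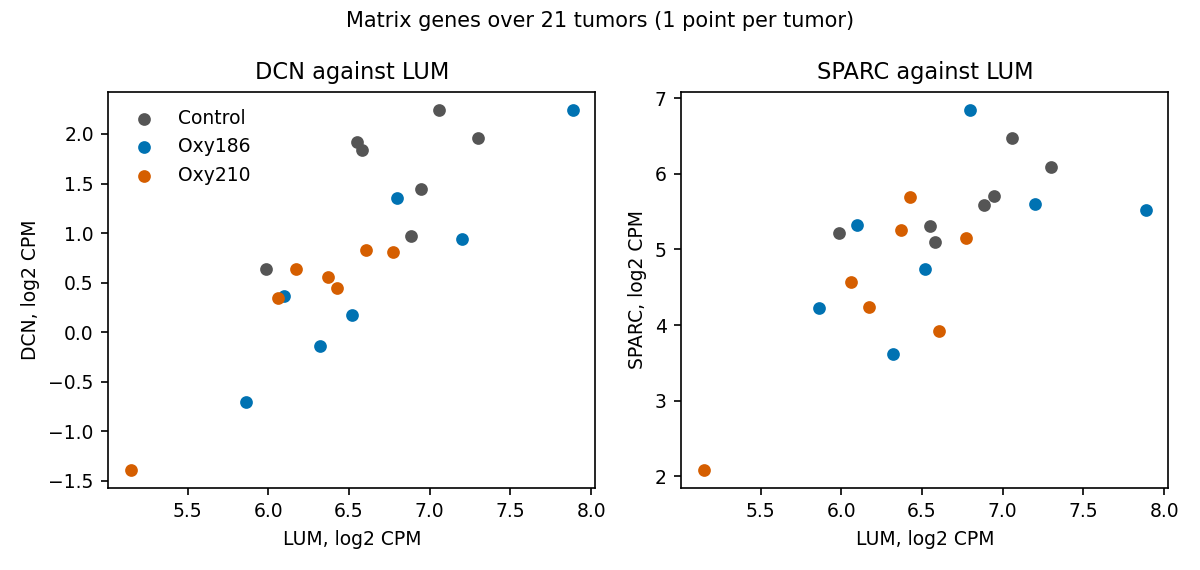
Log2 CPM of DCN (left) and of SPARC (right) against LUM, 1 point per tumor and 7 tumors per group. Both rise with LUM (Pearson's r = 0.83 and 0.70), and Oxy210 replicate 6 is the lowest point in all 3 genes.

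COL1A1 has the most GC-rich exons of the 6 markers (59.6% GC), and LUM the least (34.9%). Across tumors, r between log2 CPM and the GC slope of the library was 0.45 for COL1A1, 0.27 for SPARC, 0.16 for DCN and -0.24 for LUM. The log2 fold change of COL1A1 in Oxy186 against control was -0.28 without and 0.037 with GC offsets.

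The genes whose log2 CPM followed each marker most closely were sought among the 13607 genes whose mean log2 CPM was 1 or more. DCN was closest to SERPINB5 (r = 0.85), an epithelial serpin, then to LUM (0.83) and the keratin KRT20 (0.78). SPARC was closest to the transcription factor gene SOX21 (0.86), the potassium channel subunit gene KCNMB4 (0.84) and SERPINB5 (0.81). LUM was closest to ACOT9 (0.78), UTP11 (0.78) and NIPSNAP2 (0.77), and COL1A1 to CTNS (0.86), PGS1 (0.86) and PLEKHG2 (0.84). ACTA2 was closest to the antisense gene STX18-AS1 (0.73), AC116913.1 (0.73) and AC011476.3 (0.72), and PECAM1 to SLC9A7 (0.78), ZNF275 (0.68) and TMEM39A (0.67). These are the highest of many correlations over 21 tumors and are given as a description.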

How the data were processed

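RNA-seq counts of 21 xenograft tumors were used, 7 per group as labelled. According to the study's methods, the authors trimmed reads with Trimmomatic 0.39, aligned them with STAR 2.7.6a to a combined human and mouse genome, kept alignments to the human genome and deposited raw counts of uniquely mapped reads per human gene, made with featureCounts (Subread 2.0.1). The authors also deposited log2 CPM values after filterByExpr and TMM normalization for control and Oxy186-treated samples r1-r4. These were recomputed from the counts and differed by at most 4.97e-14. Reads of mouse origin that align better to a human gene than to the mouse genome can enter such counts, and how many did so was not tested.

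Counts were tested with edgeR 4.0.16 (filterByExpr, TMM, quasi-likelihood) in R 4.3.3, on the whole table, between pairs of groups of 7. The test was checked on simulated data. Log2 CPM used a prior count of 2. Alternatives were DESeq2 1.42.0, limma 3.58.1 voom, RLE, library size alone, all genes unfiltered, a minimum of 10 counts per library, 1 fit of all 21 libraries, GC offsets (spline with 4 degrees of freedom), a replicate block and leaving out each tumor. Depth was 13787493 to 17865119 counts per tumor. Positions, lengths and overlaps came from GENCODE 44 on GRCh38, which matched 99.65% of genes.

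The markers and lists were chosen with earlier results of these data known. Named are all 10 markers, the 3 genes of each list with the highest median CPM and every list gene called in edgeR's test (0 here), and the 3 genes closest in r to each marker with a median of at least 10 counts. Other genes named for their counts, for medians of 0 or for an unadjusted p, and EPYC and KERA, were chosen after their values were seen. Where nothing shows that tumors are independent beyond 1 tumor per label, p-values measure the spread between these tumors.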

Additional observations from a re-analysis of the deposited data

Results flagged for a closer look

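Of 18 sets of 7 tumors examined for a sample far from the rest (6 markers in 3 groups), 1 had such a sample, and chance would give 0.9. It was the log2 CPM of DCN in Oxy210 replicate 6, at -1.39 with 4 counts, which was separated from the other 6 tumors of its group by 0.784 of the group's range. The same tumor had the lowest LUM (35.3 CPM) and SPARC (4.12 CPM) of all 21 tumors.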

How the results depend on the processing

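Of 656 values recomputed under an alternative, 609 kept their direction and their side of the threshold or moved by less than the spread. Another 22 changed sign and 16 values without a test moved. The other 9 were stronger under the alternative, and all but the fold change of DCN were counts of called genes or markers. In Oxy210 against control, 22 genes were called by DESeq2 (1 of them a marker, DCN, at -1.29), 7 without a filter and 1 with the replicate block. In Oxy186 against Oxy210, 1 gene was called without a filter, with all 21 libraries in 1 fit, with GC offsets, and with the replicate block and GC offsets. The log2 fold change of LUM in Oxy186 against control was 0.016 with RLE, with DESeq2 and with all 21 libraries in 1 fit, 0.0073 with library size alone and 0.0028 with at least 10 counts in every library. That of COL1A1 was 0.037 with GC offsets and 0.0015 with the replicate block and GC offsets. The cause of these changes was not tested.

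Leaving out 1 tumor at a time left 0 genes and 0 markers called in each of the 3 comparisons. The log2 fold change then ran from -0.29 to 0.12 for LUM in Oxy186 against control, from -0.27 to 0.068 for PECAM1 in Oxy210 against control and from -0.20 to 0.10 for PECAM1 in Oxy186 against Oxy210. In the latter it ran from 0.033 to 0.62 for DCN, from 0.26 to 0.95 for SPARC and from 0.25 to 0.61 for LUM. That of DCN in Oxy210 against control ran from -1.41 to -1.10, and the minimum of 10 counts gave no value for it. Same-numbered tumors did not regularly deviate together (r from -0.398 to 0.329, over 0.1 in 3 of 7 pairs at most). These r include the GC trends of the libraries. They gave no ground to treat the replicate number as a pairing but cannot exclude a shared block. With the replicate block DCN in Oxy210 against control was at -1.26 (edgeR adjusted p = 0.215). Counts of 0 to 8 per tumor in COL1A2, COL3A1, VWF and PTPRC limit what can be said of their groups.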
